A study of Mus musculus with 16 samples.

Results

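Matrix metalloproteinases and their inhibitor Timp1 were followed across normal mucosa and tumours of mouse colon and small intestine. The set holds 7 genes, Mmp2, Mmp3, Mmp9, Mmp10, Mmp13, Mmp14 and Timp1, of 16593 genes named on the Illumina bead array, and it was taken as every probe annotated to these symbols. They are read by 12 probes of 25697: 3 for Mmp3, 3 for Mmp13, 2 for Timp1 and 1 for each of the others. All 7 genes were detected on at least 2 readable arrays and entered the fit of 11230 genes.

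The series holds 16 arrays of snap-frozen tissue in 7 groups, of which 14 arrays were readable. In the colon these are tumours of iLIN28B mice with Apcmin/+ (here LIN28B/Apcmin, 3 of 4 arrays readable), tumours of Apcmin/+ mice (Apcmin, 2 arrays) and mucosa of wt mice (2 arrays). In the small intestine they are tumours of iLIN28B mice with Apcmin/+ (2 arrays), tumours of iLIN28B mice (LIN28B, 2 arrays, labelled intestinal and placed here by the series' design text), tumours of Apcmin/+ mice (2 arrays) and mucosa of wt mice (1 of 2 arrays readable). The title of LIN28B/Apcmin small intestinal replicate 2 adds a word for mucosa to that for tumour. Titles of the small intestinal arrays hold the letter D, except LIN28B replicate 2, whose title holds Jej. Every mouse, wt included, received doxycycline from 6 or 7 weeks of age and was of a mixed B6/129/Balbc/CD1 background. Tissue was taken at 3 months, except for the LIN28B tumours at 8 months, so that age and genotype cannot be told apart there. Histology was labelled adenoma for the tumours with Apcmin/+, adenoma/adenocarcinoma for the LIN28B tumours and normal for the wt mucosa. Apcmin is a truncating allele of Apc, whose loss activates Wnt signalling, and iLIN28B is an inducible transgene of the RNA-binding protein LIN28B. The promoter and cell type that drive the transgene are not given in the sources used here.

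Metalloproteinases of this family are zinc enzymes, mostly made as inactive proenzymes and cleaved to become active, that digest collagens, laminins and other proteins of the extracellular matrix. The stromelysins Mmp3 and Mmp10, the collagenase Mmp13, the gelatinases Mmp2 and Mmp9 and the membrane-bound Mmp14 differ in substrate and in the cells that make them, which in the gut include fibroblasts, epithelial cells, macrophages and neutrophils. Timp1 is a secreted protein that binds and blocks most of them, and several of these genes are known targets of AP-1 and of inflammatory cytokines such as interleukin 1 and oncostatin M.

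The stretches just before the starts of Mmp3, Mmp10 and Mmp13 are shown because these neighbours in 1 cluster of metalloproteinase genes on chromosome 9 all hold the AP-1 letters TGANTCA (in capitals), where N is any base. Mmp3, Mmp10, Mmp13, Mmp14 and Timp1 matched the RefSeq promoter table (GRCm38.p6) by symbol, 5 of the 7, and Mmp2 and Mmp9 did not. Each line gives the 150 bases before the start on the plus strand, from chr9:7445672-7445821 for Mmp3, chr9:7502192-7502341 for Mmp10 and chr9:7272364-7272513 for Mmp13.
Mmp3: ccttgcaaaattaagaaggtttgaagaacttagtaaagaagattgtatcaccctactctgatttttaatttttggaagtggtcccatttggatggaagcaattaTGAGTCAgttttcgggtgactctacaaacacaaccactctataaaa
Mmp10: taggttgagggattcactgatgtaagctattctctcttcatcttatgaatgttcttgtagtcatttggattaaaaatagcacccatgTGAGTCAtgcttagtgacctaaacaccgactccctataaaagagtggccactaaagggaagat
Mmp13: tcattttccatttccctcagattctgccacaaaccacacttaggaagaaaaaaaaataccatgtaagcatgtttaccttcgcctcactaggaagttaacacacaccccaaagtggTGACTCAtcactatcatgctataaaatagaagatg

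Counted back from the base before the start, the AP-1 letters lie at bases 46 to 40 for Mmp3, 63 to 57 for Mmp10 and 35 to 29 for Mmp13. Within 250 bases before the start they occurred in 1856 of 27025 promoters (6.87%), reading both strands, which for these letters are alike. Over the same 250 bases, Mmp14 and Timp1 held no such match. The PEA3 letters AGGAAG, which ETS factors bind, were found in the same 250 bases on the plus strand in Mmp3 (1 match), Mmp13 (2), Mmp14 (1) and Timp1 (2), against 29.2% of all promoters on either strand. The letters CTTTGA, bound by the TCF/LEF factors of the Wnt pathway, were found in none of the 5, against 3797 of all 27025 promoters, which says only that these letters are not in this window. No match overlapped another. These are letter matches, not measured binding sites.

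The 14 readable arrays had 48.3% to 56.5% of probes at a detection p-value under 0.05. The lowest was LIN28B/Apcmin colon replicate 3, which also had the lowest median signal of the readable arrays (51). On it 1985 signals under 25 were set missing, against at most 9 on any other readable array. The arrays left out had 11.97% (replicate 4 of the LIN28B/Apcmin colon tumours) and 5.28% (replicate 1 of the small intestinal wt mucosa). The 3 LIN28B/Apcmin colon arrays carry 1 shared title number, as do both LIN28B arrays, and the readable wt small intestinal array shares one with wt colon replicate 2. Nothing in the labels says that they came from separate mice. The p-values measure only the spread between these samples, which may be technical. Small intestinal enterocyte markers summed to between 15527 and 59313 on the small intestinal arrays, against 86.0 to 246 on the colon arrays, as the tissue labels have it. Levels below are intensities as deposited, which are not scaled between arrays. Differences are log2 differences after background correction and quantile normalisation, from limma with Benjamini-Hochberg adjustment over all 11230 genes, and a gene is called where the adjusted p is under 0.05. The number of arrays limits the precision.

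**Figure D1:**
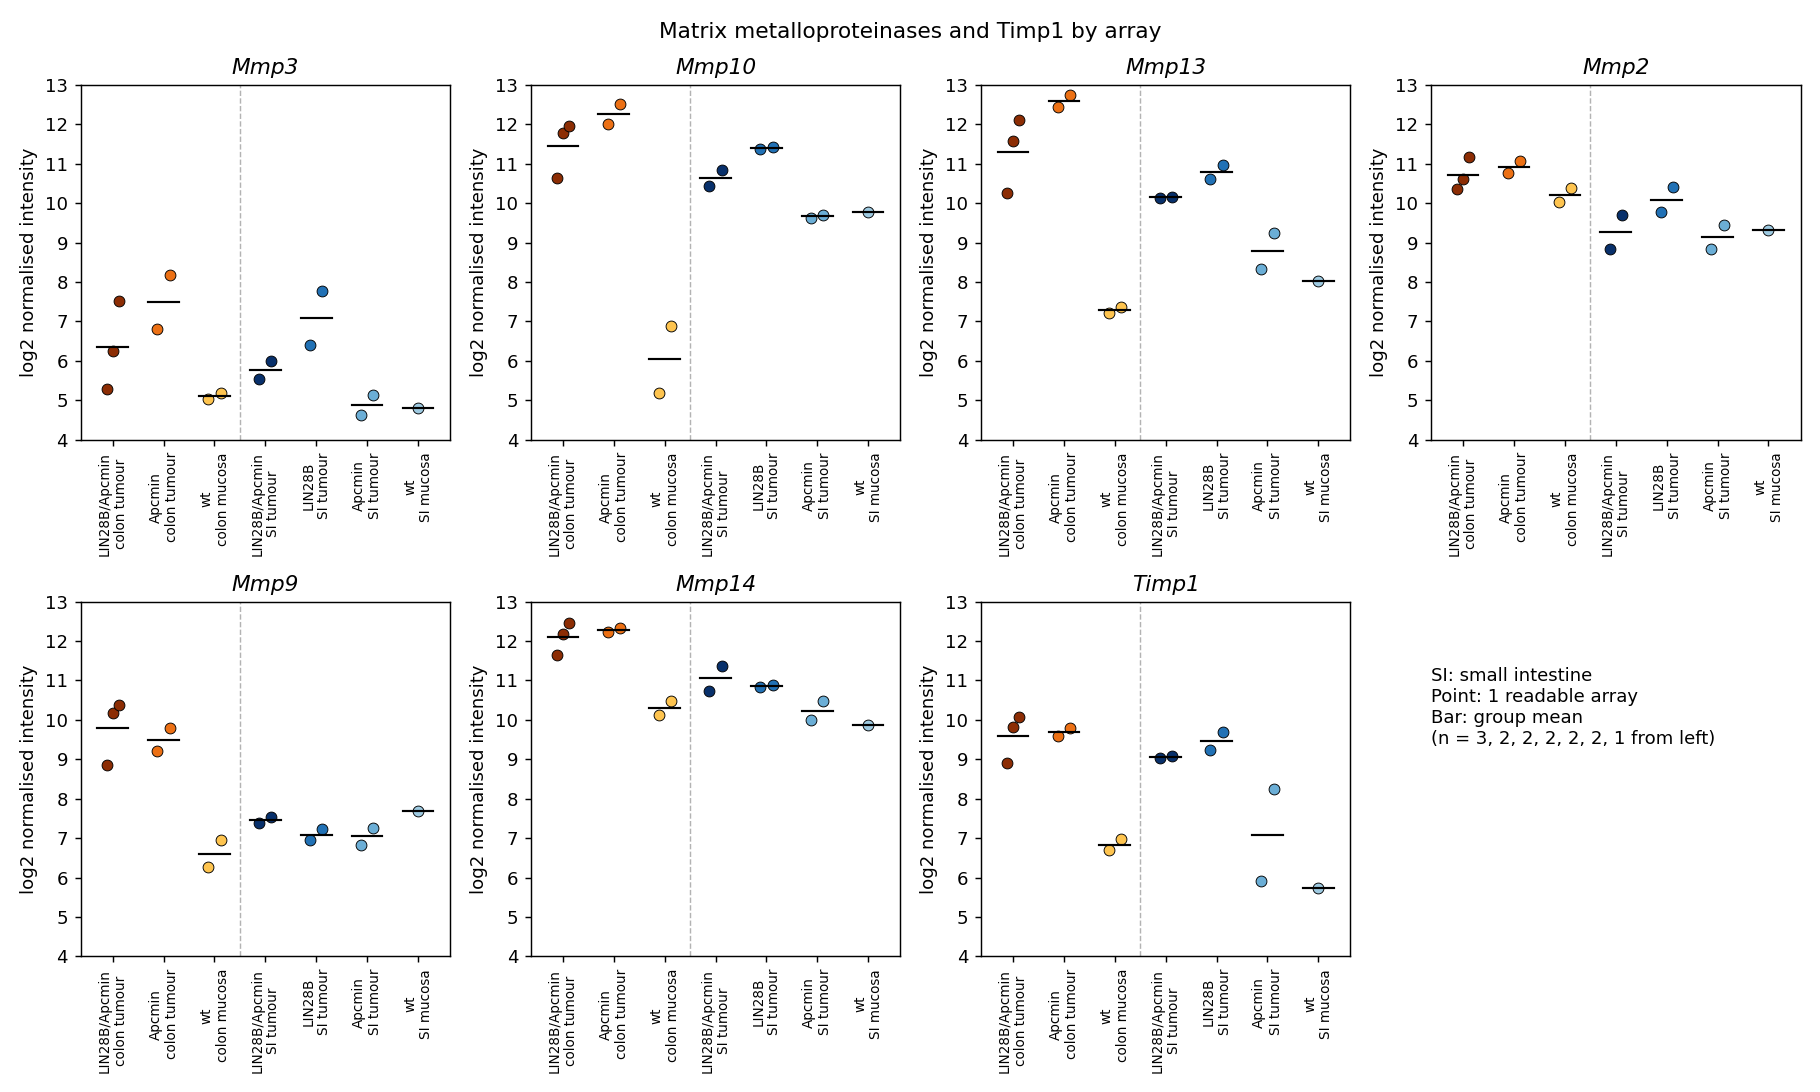
Normalised log2 intensity (vertical axis) of the probe that stands for each of the 7 genes, by group (horizontal axis), with colon groups left of the dashed line. Each point is 1 readable array and each bar a group mean. Mmp10 spans 6.23 log2 units between its lowest and highest group mean and Mmp2 only 1.77.

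Apcmin colon tumours were compared with wt colon mucosa, which asks how adenomas of the colon differ from normal tissue. Of the 7 genes, 6 rose in Apcmin colon tumours and 1, Mmp2, did not pass the test, while 6.93% of all genes tested rose. The rises ran from 3.98-fold for Mmp14 to 74.9-fold for Mmp10. The median log2 difference of the 7 was 2.87, against 0.02 over all genes. In all 7 genes, Mmp2 included, every tumour array lay above both mucosa arrays, as it did in 35% of all genes.

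Mmp10, stromelysin 2, read 7108 and 4438 in Apcmin colon tumours, against 206 and 77.9 in wt colon mucosa. The groups lay far apart, and the log2 difference was 6.23 ± 0.51 (SE, 2 arrays against 2, limma adjusted p = 7.61e-05), a 74.9-fold rise. The fold turned on the mucosa arrays: it was 134-fold without wt colon replicate 1 and 41.4-fold without replicate 2. The 77.9 of wt colon replicate 2 lay close to background (median of that array 71.3), which limits these folds. Mmp3, stromelysin 1, was much dimmer, at 200 and 374 in Apcmin colon tumours, against 81.6 and 77.9 in wt colon mucosa. It rose by a log2 difference of 2.38 ± 0.66 (limma adjusted p = 0.0333). This call rested on all 4 colon arrays: without Apcmin colon replicate 1 or 2, or without wt colon replicate 1 or 2, it was lost, at log2 differences from 1.69 to 3.06.

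Mmp13, collagenase 3, read 8209 and 5828 in Apcmin colon tumours, against 271 and 194 in wt colon mucosa. Its log2 difference of 5.29 ± 0.48 was 39.0-fold (limma adjusted p = 0.000107). The size of the Mmp13 rise depended on the probe. The brightest probe, used here, is one of 3, and the other two read 466 and 327 (ILMN_1249336) and 80.8 and 82.8 (ILMN_2799267) in Apcmin colon tumours, against 56.3 and 56.7 and then 65.3 and 61.1 in wt colon mucosa. In a fit of all 15495 probes the second rose by 3.72 ± 0.42 (limma adjusted p = 0.000326), and the third, which was detected on 8 of 14 arrays, differed by 0.54 ± 0.18 and was not called (limma adjusted p = 0.0786).

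Mmp9, the gelatinase made by neutrophils and macrophages among other cells, read 1183 and 717 in Apcmin colon tumours, against 214 and 120 in wt colon mucosa. It rose 7.42-fold, a log2 difference of 2.89 ± 0.44 (limma adjusted p = 0.00166). Mmp2, the gelatinase of fibroblasts and other stromal cells, read 2277 and 2438 in Apcmin colon tumours, against 1847 and 1134 in wt colon mucosa. Its difference of 0.71 ± 0.36 did not pass the test (limma adjusted p = 0.218, 95% confidence interval -0.08 to 1.51), which leaves room for a change of up to 1.51 log2 units. Mmp14, the membrane-bound enzyme that activates pro-Mmp2, read 5999 and 5473 in Apcmin colon tumours, against 1586 and 1525 in wt colon mucosa. As deposited, the replicates of Mmp14 lay close within each group, whereas after normalisation the mucosa arrays stood at 10.12 and 10.47. Mmp14 rose by 1.99 ± 0.29 (limma adjusted p = 0.00147).

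Timp1 read 1042 and 1055 in Apcmin colon tumours, against 185 and 169 in wt colon mucosa. The inhibitor rose 7.30-fold, a log2 difference of 2.87 ± 0.59 (limma adjusted p = 0.00879). Its second probe gave 3.29 ± 0.58 (limma adjusted p = 0.00413). The Timp1 call was lost without any 1 of the 4 colon arrays, Apcmin colon replicate 1 or 2 or wt colon replicate 1 or 2, although the log2 difference stayed between 2.73 and 3.01. Mmp9, Mmp10, Mmp13 and Mmp14 were called under each of the 14 fits that left out 1 array.

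**Figure D2:**
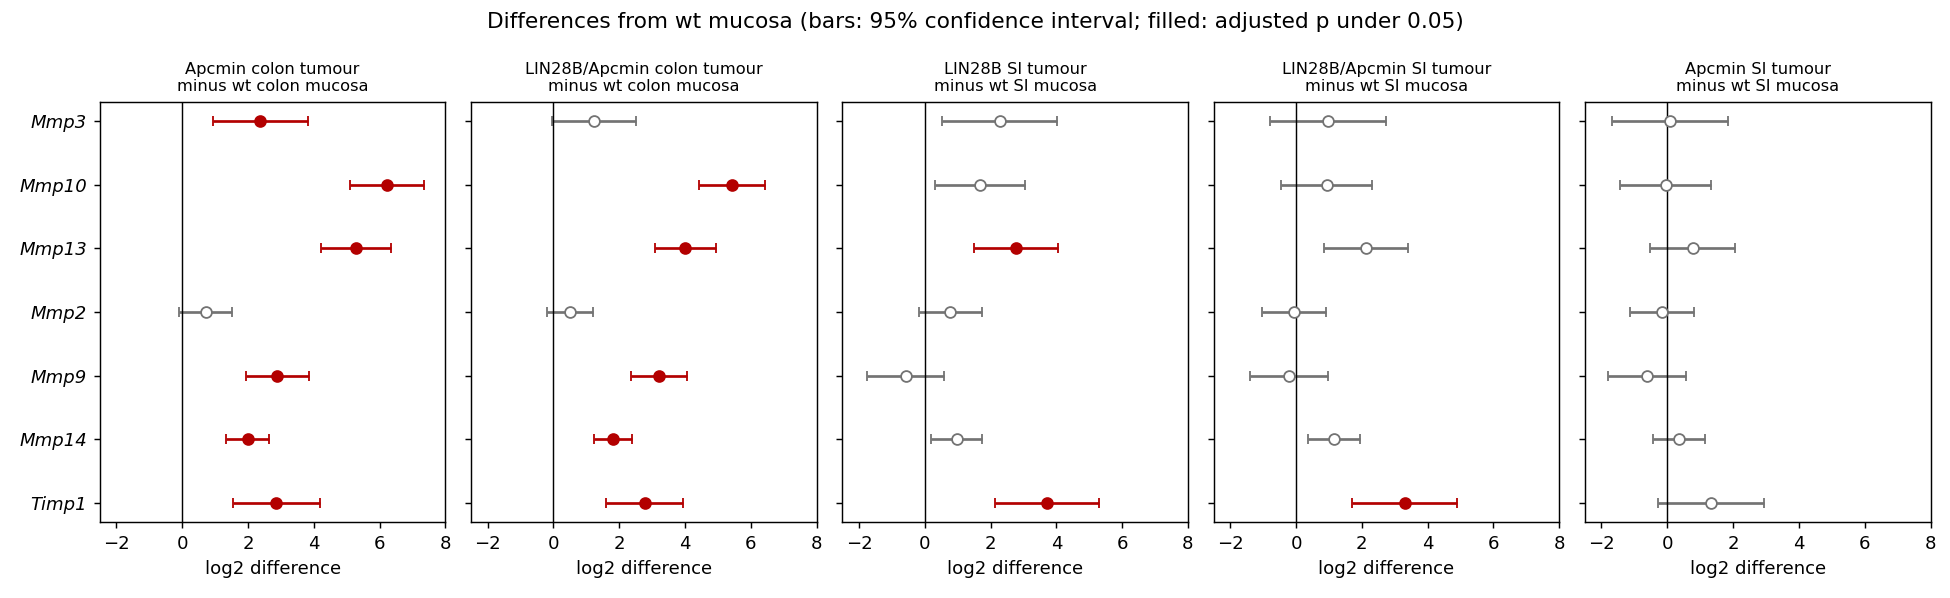
Log2 differences of the 7 genes (rows) from wt mucosa of the same organ, 1 panel for each tumour group, with 95% confidence intervals. Filled red points passed an adjusted p of 0.05: 6 genes in Apcmin colon tumours, 5 in LIN28B/Apcmin colon tumours, 2 in LIN28B small intestinal tumours, 1 in LIN28B/Apcmin small intestinal tumours and 0 in Apcmin small intestinal tumours.

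LIN28B/Apcmin colon tumours were compared with the same wt colon mucosa. Of the 7 genes, 5 rose in these tumours, while 14.8% of all genes tested rose. The median log2 difference of the 7 was 2.77, against 0.04 over all genes. Both colon comparisons share the wt arrays, so that their values are not independent.

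Mmp10 read 1797, 3026 and 2181 in LIN28B/Apcmin colon tumours, against 206 and 77.9 in wt colon mucosa, and rose 42.6-fold (log2 difference 5.41 ± 0.46, limma adjusted p = 2.03e-05). The rise was 76.3-fold without wt colon replicate 1 and 23.6-fold without wt colon replicate 2. These folds are limited too, since wt colon replicate 2 lay close to background in Mmp10. Mmp13 read 1406, 3402 and 1913 in the same tumours, against 271 and 194, and rose 16.1-fold by its brightest probe (4.01 ± 0.42, limma adjusted p = 8.58e-05). In the fit of all probes, its probe ILMN_1249336 rose by 1.74 ± 0.37 (limma adjusted p = 0.00611). Its probe ILMN_2799267 differed by 0.18 ± 0.16 and was not called (limma adjusted p = 0.459). Replicate 2 was the highest of the 3 tumour arrays for both genes. Mmp9 read 1351, 1128 and 363 in LIN28B/Apcmin colon tumours, against 214 and 120 in wt colon mucosa. It rose by 3.20 ± 0.39 (limma adjusted p = 0.000185), with replicate 3 the lowest of the 3. Mmp14 read 3450, 3583 and 3376 in LIN28B/Apcmin colon tumours, against 1586 and 1525 in wt colon mucosa, and rose by 1.80 ± 0.26 (limma adjusted p = 0.00056). Timp1 read 600, 796 and 748 in these tumours, against 185 and 169, and rose by 2.77 ± 0.53 (limma adjusted p = 0.00289). Replicate 3 was the highest of the 3 tumour arrays for Mmp14 (12.45) and Timp1 (10.07) after normalisation, but not as deposited. All 3 tumour arrays stood above both mucosa arrays for these 5 genes, as they did in 29.8% of all genes with a value on each of these arrays.

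Mmp3 read 80.8, 202 and 90.3 in LIN28B/Apcmin colon tumours, against 81.6 and 77.9 in wt colon mucosa. After normalisation all 3 tumour arrays lay above both mucosa arrays, replicate 1 by the least, and the difference of 1.24 ± 0.58 did not pass the test (limma adjusted p = 0.136). Without LIN28B/Apcmin colon replicate 1 or replicate 3, Mmp3 was called, at 1.76 and 1.97. Mmp2 overlapped between the groups and differed by 0.51 ± 0.32 (limma adjusted p = 0.265). When the 3 tumour arrays, which share a title number, were averaged to 1 sample, 4 of the 5 calls held, and Timp1, at 2.77, was the 1 lost.

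LIN28B/Apcmin colon tumours were then compared with Apcmin colon tumours, which asks what LIN28B adds to an Apcmin tumour. None of the 7 genes was called in either direction by limma, while 1.67% of all genes tested were. An unadjusted p under 0.05 was found for 1 of the 7 and 15.3% of all genes. That member was Mmp13, which read 1406, 3402 and 1913 in LIN28B/Apcmin colon tumours, against 8209 and 5828 in Apcmin colon tumours. The groups did not overlap, and the log2 difference was -1.28 ± 0.42 (limma adjusted p = 0.167). It was called without LIN28B/Apcmin colon replicate 2, at -1.69, and when arrays were scaled by their medians, at -1.51. In the fit of all probes, the second Mmp13 probe (ILMN_1249336) read 74.2, 142 and 100.3 in LIN28B/Apcmin colon tumours, against 466 and 327 in Apcmin colon tumours, and was called lower, at -1.98 ± 0.37 (limma adjusted p = 0.0289), so that the call depended on the probe. Mmp10 likewise lay lower on every LIN28B/Apcmin array and differed by -0.81 ± 0.46 (limma adjusted p = 0.441). The tumour groups did not overlap in these 2 of the 7 genes, against 32.7% of all genes with a value on each array, in either direction. The 95% confidence intervals allow log2 changes of -0.91 to 0.50 for Mmp2, -0.77 to 0.38 for Mmp14, -0.55 to 1.16 for Mmp9, -1.26 to 1.06 for Timp1 and -2.42 to 0.14 for Mmp3.

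Other genes of matrix turnover were described from lists, with each colon tumour group set against the same 2 wt arrays. Of the other metalloproteinases, 9 of 17 listed were tested. In Apcmin colon tumours 3 rose and 1 fell (median 0.27): Mmp12, the macrophage elastase, by 2.48 ± 0.34, Mmp11, stromelysin 3, by 0.94 ± 0.16 and Mmp7, matrilysin, by 3.03 ± 0.57, whereas Mmp17, a membrane-anchored member, fell by 1.99 on the log2 scale (limma adjusted p from 0.00015 to 0.00573). In LIN28B/Apcmin colon tumours 4 rose and 1 fell (median 0.55), among them Mmp7 by 4.36 ± 0.51 and Mmp12 by 3.08 ± 0.30 (limma adjusted p = 0.000153 and 5.06e-05). Mmp7 and Mmp12 were not detected on either wt colon array, so that their folds are bounds: at least 6.55-fold and 4.56-fold in Apcmin tumours, and at least 16.5-fold and 6.88-fold in LIN28B/Apcmin tumours.

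Of the other inhibitors and related proteins, 5 of 9 listed were tested. In Apcmin colon tumours Spock2, a testican counted here as a related protein, rose (limma adjusted p = 0.000179). Reck, a membrane-anchored inhibitor, fell there (limma adjusted p = 0.0119), with a median of -0.18 for the list. In LIN28B/Apcmin colon tumours Spock2 rose and Reck, Timp2 and Timp4 fell, with a median of -1.02 for the list. Timp2 fell by 1.02 on the log2 scale (limma adjusted p = 0.0112). Timp1 rose there while 3 of the 5 genes tested of this list fell. Timp4 was not detected on any LIN28B/Apcmin array and was at least 2.55-fold lower there.

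Of the cytokines and receptors known to induce metalloproteinases, 20 of 22 were tested and 12 rose in each of the 2 colon tumour groups, none falling (median 1.14 in Apcmin and 1.22 in LIN28B/Apcmin tumours). Interleukin 1 beta, Il1b, rose by 4.90 ± 0.41 in Apcmin and 4.94 ± 0.37 in LIN28B/Apcmin tumours (limma adjusted p = 7.89e-05 and 1.02e-05), and oncostatin M, Osm, by 3.93 ± 0.31 and 3.60 ± 0.28 (limma adjusted p = 6.71e-05 and 1.28e-05). Of the AP-1 and ETS factors, 4 of 11 rose in Apcmin colon tumours and 6 of 11 in LIN28B/Apcmin colon tumours, with medians of 0.76 and 0.87. Jun, an AP-1 subunit, rose by 1.54 ± 0.25 and 0.89 ± 0.22, and Ets2 by 1.15 ± 0.15 and 0.94 ± 0.14 (limma adjusted p from 0.000551 to 0.0122).

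Of the matrix substrates and basement membrane genes, 5 of 13 rose in Apcmin tumours (median 0.84), and 4 rose and 1 fell in LIN28B/Apcmin tumours (median 0.45). Col4a1, a chain of the basement membrane collagen that Mmp2 and Mmp9 cleave, rose by 1.23 ± 0.18 and 1.33 ± 0.16 (limma adjusted p = 0.00134 and 0.000171). Plau, the urokinase that activates plasminogen, rose by 0.95 ± 0.29 and 1.07 ± 0.25 (limma adjusted p = 0.0474 and 0.00971). Of 5 genes of plasminogen activation tested, 1 rose in Apcmin tumours and 2 in LIN28B/Apcmin tumours (medians 0.54 and 0.92). Of the ADAM and ADAMTS proteases, 3 of 11 rose in Apcmin tumours (median 0.20), and 4 rose and 2 fell in LIN28B/Apcmin tumours (median 0.47). Adam8, known from neutrophils, was not detected in wt colon and was at least 3.05-fold and 3.40-fold higher.

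Markers of several cell types also differed between colon tumours and wt colon mucosa, some higher and some lower. Of the neutrophil markers, 7 of 9 tested rose in both tumour groups, and their summed normalised intensity ran from 10339 to 11819 in LIN28B/Apcmin tumours and from 5459 to 7935 in Apcmin tumours, against 238 to 328 in wt colon mucosa. S100a8 rose by 7.14 ± 0.56 and 6.40 ± 0.62 in the 2 tumour groups (limma adjusted p = 1.32e-05 and 0.000152), whereas the granule genes Ngp and Camp were not detected on any readable array. Smooth muscle markers fell, 8 of 8 in LIN28B/Apcmin and 7 of 8 in Apcmin colon tumours, with sums of 6535 to 8897 and 11454 to 13333, against 45636 to 47271 in wt colon mucosa. Fibroblast markers moved both ways: 2 rose and 3 fell of 11 in LIN28B/Apcmin, and 1 rose and 2 fell in Apcmin tumours, with sums of 6335 to 8907 and 9738 to 10357, against 8666 to 9433 in mucosa. Postn was not detected on any array. Macrophage marker sums were 7017 to 7325 and 5552 to 8709, against 3588 to 4004 in mucosa, with 1 of 8 rising and 1 falling in LIN28B/Apcmin tumours, 1 falling in Apcmin tumours, and Itgam not detected. Colonocyte markers fell, 5 of 5 in both groups, to sums of 210 to 335 and 1859 to 1920, against 28466 to 31935. Of 5 Paneth cell markers, which include Mmp7, 3 rose and 1 fell in LIN28B/Apcmin and 4 rose in Apcmin tumours, with sums of 20169 to 32430 and 34470 to 38818, against 18715 to 20445. Red blood cell markers rose, 3 of 3 and 2 of 3, with sums of 10483 to 21794 and 6396 to 9195, against 468 to 1433. The part of these cells in the rise of the metalloproteinases and Timp1 was not tested, and in tissue samples fewer cells of a type and less RNA per cell cannot be told apart.

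**Figure D3:**
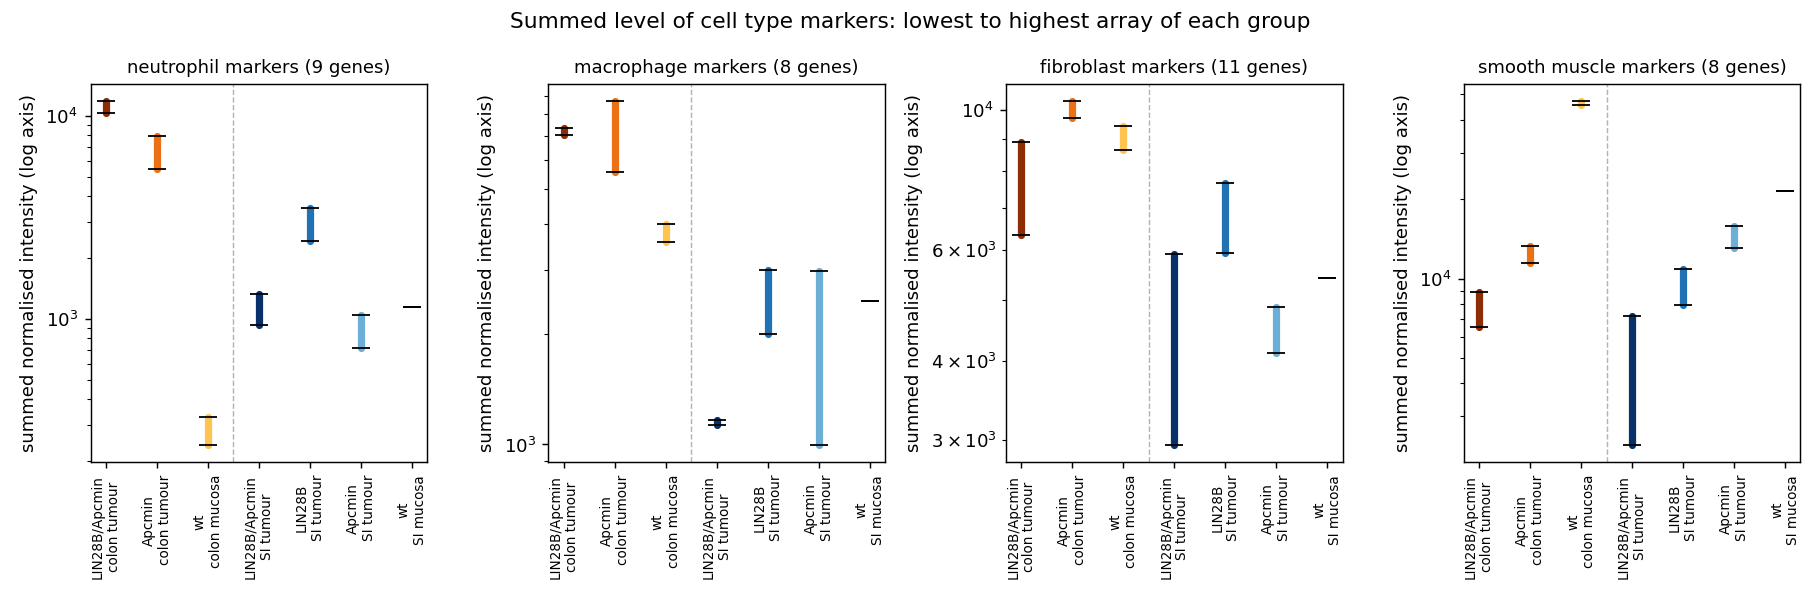
Summed normalised intensity (log axis) of the tested markers of 4 cell types, with the line running from the lowest to the highest array of each group and the ticks marking both. Neutrophil sums are 10339 to 11819 and 5459 to 7935 in the 2 colon tumour groups, above 238 to 328 in wt colon mucosa, and smooth muscle sums run the other way.

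In the small intestine each tumour group is set against a single readable wt array, and the 3 comparisons share it. The lone array is assumed to vary like the other groups. Of the 7 genes, 2 rose in LIN28B tumours, Mmp13 and Timp1, while 1.49% of all genes tested rose. In LIN28B/Apcmin tumours 1 rose, Timp1, while 2.56% of all genes did. In LIN28B tumours 5 of the 7 genes and 22% of all genes had an unadjusted p under 0.05 in limma. In LIN28B/Apcmin tumours 3 of the 7 and 25.2% of all genes had one. In Apcmin tumours 0 of the 7 rose, while 0% of all genes tested did by limma, 10 fell, and 277 genes but none of the 7 had an unadjusted p under 0.05. The median log2 differences of the 7 were 1.69, 0.96 and 0.07 in these 3 groups.

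Timp1 read 719 and 998 in LIN28B small intestinal tumours, 521 and 429 in LIN28B/Apcmin tumours and 94.6 and 262 in Apcmin tumours, against 97.5 in wt mucosa. It rose 13.1-fold in LIN28B tumours (3.71 ± 0.72, limma adjusted p = 0.0211) and 9.86-fold in LIN28B/Apcmin tumours (3.30 ± 0.73, limma adjusted p = 0.030). In Apcmin tumours 1 array lay at the level of the mucosa and the other above it, and the difference of 1.33 ± 0.73 was not called (limma adjusted p = 1). Without Apcmin small intestinal replicate 1, the array at the mucosa's level, it was called, at 2.48. Both Timp1 calls were lost when arrays of 1 title number were averaged, at 3.72 in LIN28B tumours, whose arrays share a number, and 3.31 in LIN28B/Apcmin tumours. The LIN28B call was also lost without LIN28B replicate 2 (3.47), and the LIN28B/Apcmin call without LIN28B/Apcmin small intestinal replicate 2 (3.25) or without any 1 of the 4 wt and Apcmin colon arrays (3.31). LIN28B replicate 2 is the array titled Jej, and the title of LIN28B/Apcmin small intestinal replicate 2 adds a word for mucosa.

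Mmp13 read 1859 and 2424 in LIN28B small intestinal tumours, 1099 and 900 in LIN28B/Apcmin tumours and 332 and 491 in Apcmin tumours, against 315 in wt mucosa. The order of the 3 tumour groups held without overlap. Mmp13 rose 6.86-fold in LIN28B tumours (2.78 ± 0.58, limma adjusted p = 0.0286), a call that was lost without LIN28B replicate 1 (2.95) or 2 (2.58), and without any 1 of the wt and Apcmin colon arrays (from 2.77 to 2.78). In LIN28B/Apcmin tumours it differed by 2.13 ± 0.58 and just missed the threshold (limma adjusted p = 0.058). There it was called without LIN28B/Apcmin colon replicate 1, 2 or 3 (2.16 each time). It was also called without Apcmin small intestinal replicate 1 (2.14) or 2 (2.13), and when arrays were scaled by their medians (2.06). In Apcmin tumours Mmp13 differed by 0.77 ± 0.58 (limma adjusted p = 1). The second Mmp13 probe, at 84.7 and 76.8 in LIN28B tumours, against 63.1 in wt mucosa, gave only 0.77 ± 0.51 (limma adjusted p = 0.428).

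Mmp10 was already bright in the small intestinal mucosa. It read 3104 and 3271 in LIN28B tumours, 1795 and 1109 in LIN28B/Apcmin tumours and 779 and 673 in Apcmin tumours, against 994 in wt small intestinal mucosa. The differences were 1.69 ± 0.62, 0.94 ± 0.63 and -0.04 ± 0.63, none of them called (limma adjusted p = 0.145, 0.385 and 1). Mmp3 read 282 and 124 in LIN28B tumours, 83.8 and 82.6 in LIN28B/Apcmin tumours and 62.6 and 65.8 in Apcmin tumours, against 68.7 in wt mucosa. Its difference in LIN28B tumours, 2.28 ± 0.79, was not called (limma adjusted p = 0.126), although both arrays lay above all others of the small intestine. Without LIN28B/Apcmin colon replicate 1 or replicate 2, Mmp3 and Mmp10 were both called in LIN28B tumours, Mmp3 at 2.24 and 2.26 and Mmp10 at 1.98 and 2.01.

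Mmp14 read 2249 and 2191 in LIN28B tumours, 2573 and 1363 in LIN28B/Apcmin tumours and 988 and 1164 in Apcmin tumours, against 1078 in wt mucosa. The differences of 0.97 ± 0.35, 1.17 ± 0.36 and 0.35 ± 0.36 were not called (limma adjusted p = 0.143, 0.0785 and 1). Neither gelatinase was called in the small intestine. Mmp9 read 203 and 169 in LIN28B tumours, 211 and 151 in LIN28B/Apcmin tumours and 141 and 148 in Apcmin tumours, all below the 258 of wt mucosa, with differences of -0.58 ± 0.53, -0.21 ± 0.53 and -0.61 ± 0.53. Mmp2 differed by 0.77 ± 0.44, -0.05 ± 0.44 and -0.17 ± 0.44. The adjusted p-values of both in limma ran from 0.333 to 1.

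LIN28B/Apcmin small intestinal tumours were also compared with the other tumours of that organ. Against Apcmin tumours none of the 7 genes was called by limma, while 5.24% of all genes tested were, in either direction. An unadjusted p under 0.05 was found for 3 of the 7 and 25.2% of all genes. The 3 genes were Timp1, at 1.97 ± 0.59, Mmp13, at 1.36 ± 0.48, and Mmp14, at 0.81 ± 0.29 (limma adjusted p = 0.0731, 0.110 and 0.117). The groups did not overlap in 6 of the 7 genes, against 50.2% of all genes. Timp1 turned on 1 array: without Apcmin small intestinal replicate 2 it was called, at 3.14, together with Mmp13 at 1.80. Against LIN28B tumours none of the 7 was called, while 1.19% of all genes were. An unadjusted p under 0.05 was found for 1 of the 7 and 16.6% of all genes. That gene was Mmp2, which read 825 and 362 in LIN28B/Apcmin tumours, against 1621 and 1052 in LIN28B tumours (-0.82 ± 0.35, limma adjusted p = 0.273).

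Related genes of the same lists were also followed in the small intestine. In LIN28B tumours 4 of 20 inducing cytokines and receptors rose (median 0.53), and Il1b rose by 3.66 ± 0.50 (limma adjusted p = 0.00448). None of the 9 other metalloproteinases or 5 other inhibitors and related proteins was called in either direction. Nor was any of the 11 AP-1 and ETS factors, 13 matrix genes and 5 genes of plasminogen activation. Of 11 ADAM and ADAMTS proteases 1 rose, Adamts4. Osm, Cxcl1 and Il11 were not detected in wt mucosa and were at least 3.54-fold, 16.5-fold and 21.8-fold higher. In LIN28B/Apcmin tumours 1 of 20 rose, Cxcl1, by at least 17.7-fold, 2 of 11 AP-1 and ETS factors rose, Etv5 and Ets2, 1 of 5 genes of plasminogen activation rose, Serpinf2, and of 11 ADAM and ADAMTS proteases 1 rose and 1 fell. Among the 9 other metalloproteinases there, Mmp23 fell by 1.38 and Mmp17 by 1.04 on the log2 scale (limma adjusted p = 0.0307 and 0.0344). In Apcmin tumours none of these lists held a called gene.

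Neutrophil markers summed to 2419 to 3514 in LIN28B tumours, with 3 of 9 rising, to 931 to 1327 in LIN28B/Apcmin tumours, with 1 rising, and to 716 to 1038 in Apcmin tumours, with 0 rising, against 1141 in wt small intestinal mucosa. Smooth muscle markers summed to 7964 to 10842 with 1 of 8 falling, 2331 to 7211 with 5 falling, and 13053 to 15890 with 0 falling, against 21432. Macrophage sums were 2003 to 3006, 1134 to 1168 and 996 to 2975, against 2462. Paneth cell markers fell, 3 of 5 in LIN28B tumours (sums of 11792 to 16071) and 2 of 5 in LIN28B/Apcmin tumours (19279 to 26860), and 0 of 5 in Apcmin tumours (49993 to 73857), against 69747 in wt mucosa. Colonocyte markers fell too, 4 of 5, 3 of 5 and 0 of 5 in these groups, with sums of 195 to 267, 569 to 640 and 2814 to 4931, against 4521. Fibroblast sums were 5940 to 7672, 2942 to 5915 and 4116 to 4870, against 5410. The LIN28B/Apcmin array with the lowest fibroblast and smooth muscle sums was replicate 2, whose title adds a word for mucosa to that for tumour. Against Apcmin tumours, 5 of 8 smooth muscle markers and 1 of 11 fibroblast markers were lower in LIN28B/Apcmin tumours. The part of these cells in Mmp13 and Timp1 was not tested.

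Apcmin tumours were compared between the organs, and so were LIN28B/Apcmin tumours. All 7 genes were higher in Apcmin colon tumours than in Apcmin small intestinal tumours, while 10.8% of all genes tested were. The log2 differences ran from 1.77 ± 0.36 for Mmp2 (limma adjusted p = 0.00626) to 3.80 ± 0.48 for Mmp13 (limma adjusted p = 0.000399), and for each of the 7 genes no small intestinal array reached a colon array, against 35.6% of all genes. Mmp9 differed by 2.44 ± 0.44, Mmp10 by 2.60 ± 0.51 and Mmp14 by 2.05 ± 0.29 (limma adjusted p = 0.00324, 0.00543 and 0.000854). Leaving out Apcmin colon replicate 2 cost the calls of Mmp2 (1.63), Mmp3 (1.93) and Timp1 (2.52), leaving out Apcmin colon replicate 1 those of Mmp10 (2.34) and Timp1 (2.73), and leaving out Apcmin small intestinal replicate 1 that of Mmp3 (2.37). Timp1 kept its call but moved to 1.45 without Apcmin small intestinal replicate 1 and to 3.78 without replicate 2, and Mmp3 moved to 3.29 without Apcmin colon replicate 1.

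Between LIN28B/Apcmin tumours of the 2 organs, 3 of the 7 genes were higher in the colon, while 9.46% of all genes tested were. These were Mmp9 at 2.35 ± 0.39, Mmp2 at 1.45 ± 0.32 and Mmp14 at 1.04 ± 0.26 (limma adjusted p = 0.00242, 0.0108 and 0.0198). Mmp2 and Mmp14 were not called without LIN28B/Apcmin small intestinal replicate 2, at 1.01 and 0.72, or with title numbers averaged, which left Mmp9. The title of that replicate adds a word for mucosa to that for tumour. Without LIN28B/Apcmin colon replicate 1 the count was 5, with Mmp10 at 1.22 and Mmp13 at 1.70 added. In the main values Mmp13 differed by 1.16 ± 0.42, Mmp10 by 0.81 ± 0.46, Mmp3 by 0.59 ± 0.58 and Timp1 by 0.55 ± 0.53, not called (limma adjusted p from 0.0825 to 0.525). Cell markers moved with the organ too: 6 of 11 fibroblast, 6 of 9 neutrophil and 5 of 8 macrophage markers were higher in the LIN28B/Apcmin colon tumours. In the Apcmin colon tumours 4 of 11, 6 of 9 and 2 of 8 were higher, and 1 neutrophil marker was lower. Their part in the difference between organs was not tested.

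Whether the Apcmin tumours departed from mucosa by different amounts in the 2 organs was tested directly. The difference of differences was called for 3 of the 7 genes, all larger in the colon, while 1.51% of all genes tested were called in either direction. It was 6.27 ± 0.82 for Mmp10, 4.52 ± 0.76 for Mmp13 and 3.50 ± 0.70 for Mmp9 (limma adjusted p = 0.00527, 0.0211 and 0.0359). The mucosa levels of Mmp10 differed between the organs, at 206 and 77.9 in wt colon and 994 in wt small intestine. The 77.9 lay close to background, which limits the size of the Mmp10 value. Mmp14 at 1.64 ± 0.47, Mmp3 at 2.31 ± 1.05, Timp1 at 1.54 ± 0.95 and Mmp2 at 0.88 ± 0.58 were not called (limma adjusted p from 0.133 to 0.585). The test rests on 1 wt small intestinal array, which shares its title number with wt colon replicate 2. The Mmp13 and Mmp9 calls were lost without any 1 of the 4 wt and Apcmin colon arrays, at 4.38 to 4.68 and 3.18 to 3.88, and that of Mmp9 also without Apcmin small intestinal replicate 1 (3.24). That of Mmp10 held in each of 13 such fits, at 7.16 without wt colon replicate 1 and 5.47 without wt colon replicate 2, and Timp1 was added without Apcmin small intestinal replicate 2, at 2.71.

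The effect of LIN28B within Apcmin tumours, taken over both organs, was called for none of the 7 genes by limma, while 6.88% of all genes tested were called in either direction. Timp1, at 0.94 ± 0.40, was the 1 gene of the 7 with an unadjusted p under 0.05, as 24.2% of all genes had (limma adjusted p = 0.178), and it was called without Apcmin small intestinal replicate 2, at 1.52. The difference of that effect between colon and small intestine was called for none of the 7, while 0.534% of all genes were. An unadjusted p under 0.05 was found for 5 of the 7 and 17.6% of all genes. All 7 values were below 0, that is, lower in the colon. They were -2.64 ± 0.64 for Mmp13, -2.07 ± 0.79 for Timp1, -2.03 ± 0.88 for Mmp3, -1.79 ± 0.69 for Mmp10 and -1.01 ± 0.39 for Mmp14 (limma adjusted p from 0.0977 to 0.264), with Mmp2 at -0.32 ± 0.48 and Mmp9 at -0.10 ± 0.58. Mmp13 was called without LIN28B/Apcmin colon replicate 1 (-2.12) or 2 (-3.05), and Mmp13 and Timp1 without Apcmin small intestinal replicate 2 (-3.07 and -3.24).

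Mmp2, Mmp3, Mmp10, Mmp13, Mmp14 and Timp1 had their highest group mean in Apcmin colon tumours, and Mmp9 in LIN28B/Apcmin colon tumours, where it overlapped the Apcmin colon tumours. For Mmp10 and Mmp13 the order was Apcmin colon tumours, LIN28B/Apcmin colon tumours, LIN28B small intestinal tumours and LIN28B/Apcmin small intestinal tumours, with the middle 2 overlapping, and wt colon mucosa came last. For Mmp10 the LIN28B/Apcmin tumours of the 2 organs overlapped as well. Mean log2 levels of Mmp13 in that order were 12.59 ± 0.21, 11.31 ± 0.96, 10.79 ± 0.26 and 10.14 (both arrays 10.14 and 10.15), followed by Apcmin small intestinal tumours at 8.79 ± 0.64, wt small intestinal mucosa at 8.02 and wt colon mucosa at 7.30 ± 0.11 (SD, n = 2, or 3 for LIN28B/Apcmin colon). Timp1 had 4 tumour groups between 9.05 and 9.70, with neighbours in the order overlapping except LIN28B and LIN28B/Apcmin small intestinal tumours, then Apcmin small intestinal tumours at 7.08 ± 1.65, wt colon mucosa at 6.83 ± 0.20 and wt small intestinal mucosa at 5.74. Mmp9 fell into 2 levels: 9.80 ± 0.82 and 9.50 ± 0.41 in the colon tumours, and 6.61 to 7.69 in the other 5 groups. Mmp2 had its 4 highest groups, from 10.92 ± 0.21 to 10.09 ± 0.44, overlapping each with the next.

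Across the 14 arrays Mmp10 and Mmp13 were alike, with a Pearson r of 0.90 and a Spearman rho of 0.98, and r was 0.98 over the 7 colon arrays and 0.92 over the 7 small intestinal arrays. Mmp14 and Timp1 had r = 0.996 over the colon arrays and 0.88 over the small intestinal arrays. Mmp9 followed the others in the colon but not in the small intestine: its r with Mmp10 was 0.91 over the colon arrays and -0.13 over the small intestinal arrays, and with Timp1 0.85 and -0.08. These correlations share arrays, title numbers and group differences and are descriptions only.

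**Figure D4:**
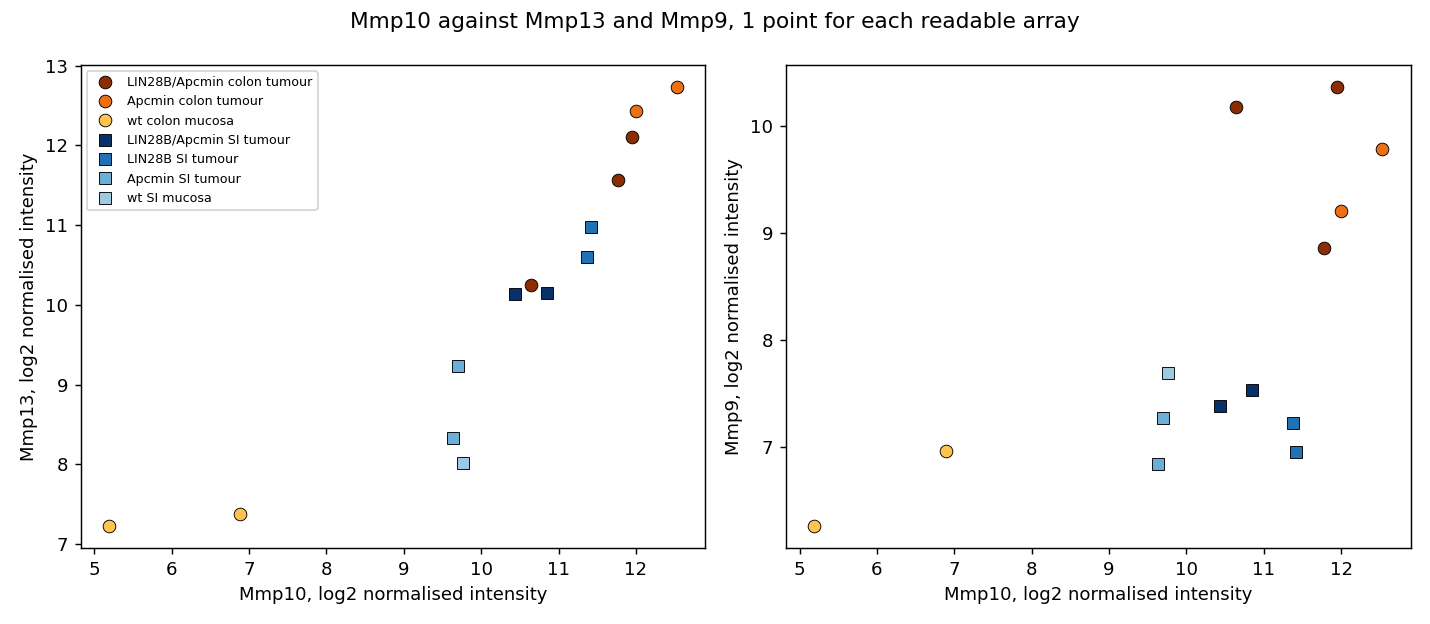
Normalised log2 intensity of Mmp13 (left) and Mmp9 (right) against Mmp10 on the 14 readable arrays, with circles for colon and squares for small intestine, coloured by group. Mmp13 climbs with Mmp10 in both organs, whereas the 7 small intestinal arrays stay between 6.84 and 7.69 in Mmp9 while Mmp10 differs.

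Among all genes with values on the 14 arrays, those most like each member by Pearson r were as follows. Mmp2 was closest to Bgn (0.95), Igfbp7 (0.93) and Sparc (0.93), which encode secreted matrix-associated proteins. Mmp9 was closest to Cxcl2 (0.95), a neutrophil-attracting chemokine, Asprv1 (0.94) and Mapk15 (0.94). Mmp10 was closest to Wfdc18 (0.92), Prr18 (0.91) and Mmp13 (0.90), and Mmp13 to Mtap (0.97), Lama1 (0.95), a laminin chain, and Hnrnpab (0.94). Mmp14 was closest to Dcakd (0.96), Ilkap (0.96) and Snn (0.95), Timp1 to Hdgf, Mcm5 and Nol10 (0.97 each), and Mmp3 to Trit1 (0.89), Lgi2 (0.88) and Fam111a (0.88). Spearman rho for these 21 pairs ran from 0.77 to 0.98.

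The probes of a gene agreed for Timp1, whose 2 probes had r = 0.99 over the 14 arrays, and for Mmp3, whose 3 probes had r from 0.87 to 0.98. The probe that stands for Mmp3, ILMN_2753809, was detected on 13 of 14 arrays, missing only Apcmin small intestinal replicate 1, and its highest signal was 374, so that Mmp3 was measured close to background on most arrays. In Apcmin colon tumours the other Mmp3 probes gave differences of 1.77 ± 0.59 and 2.38 ± 0.83 from mucosa, not called (limma adjusted p = 0.0712 and 0.0826). For Mmp13, ILMN_1249336 had r = 0.89 with the brightest probe, and ILMN_2799267, whose signals stayed between 51.8 and 82.8, had 0.54.

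**Figure D5:**
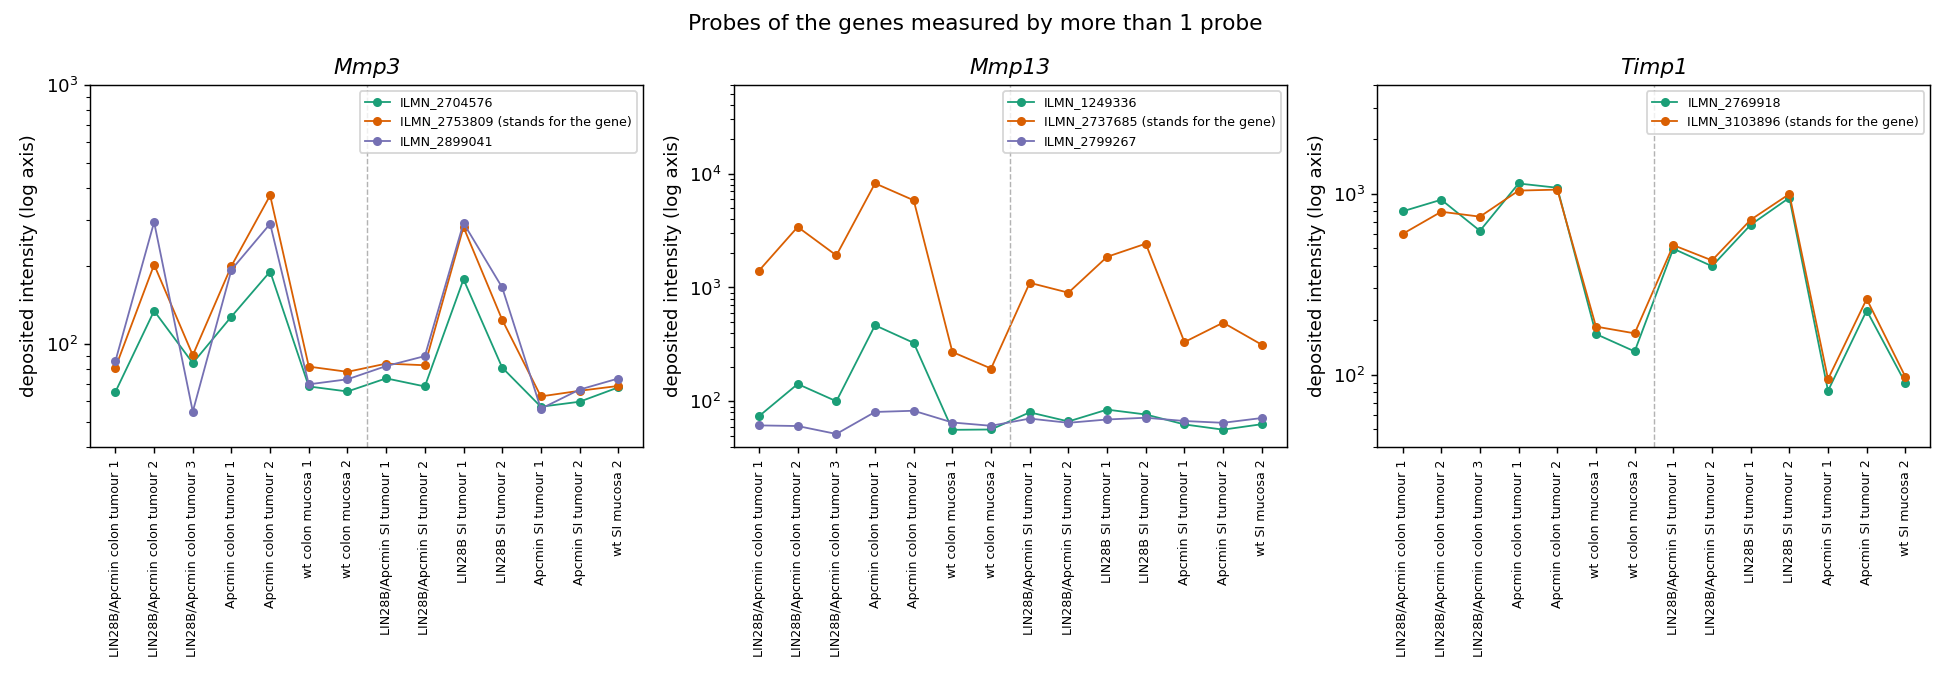
Deposited intensity (log axis) of each probe of Mmp3, Mmp13 and Timp1 on the 14 readable arrays, with lines joining the arrays of 1 probe for reading only. The 2 Timp1 probes lie on each other, whereas Mmp13 probe ILMN_2799267 stays between 51.8 and 82.8.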

How the data were processed

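Biotin-labelled cRNA from TRIZOL-extracted RNA was read on Illumina mouse bead arrays, per the labels' protocols. The deposited bead intensities are not scaled between arrays, and the authors deposited a detection p-value beside each. The scanner software and the method behind the series' value table are not given in the sources used here. That table was a linear transform of the deposited intensities on each readable array (r = 1 on all 14) and served as an alternative. Arrays with under 20% of probes at a detection p-value under 0.05 were left out (2 of 16), and signals under 25 were set missing.

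Intensities were corrected by normexp (offset 16), put on the log2 scale and quantile normalised in limma 3.58.1 (R 4.3.3). Probes of 1 named gene with detection on 2 or more arrays were tested (15495), and the probe with the highest mean stood for its gene (11230 genes). 1 model of 7 group means, with title number as a random block (correlation -0.0642), gave 13 comparisons, adjusted by Benjamini-Hochberg within each. As this correlation was negative, the block did not widen the errors of groups whose arrays share a title number. Replicate numbers were not taken as pairs. Scripts were tested on simulated data. The 7 genes and all lists were chosen with earlier results of these data known. From each list up to 4 called genes of smallest p in a comparison could be named, and likeness gives the 3 named genes of highest Pearson r. Lin28b is not analysed here.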

Additional observations from a re-analysis of the deposited data

Results flagged for a closer look

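The departure of Apcmin tumours from wt mucosa differed between colon and small intestine, by a test of that difference, for Mmp10 (log2 6.27), Mmp13 (4.52) and Mmp9 (3.50). It rests on 1 wt small intestinal array, and for Mmp10 also on a wt colon array close to background. LIN28B/Apcmin colon replicate 4, left out for its low share of detected probes, still carried signal above its detection limit from Mmp14 (1995 as deposited) and from 2 Mmp3 probes (ILMN_2899041 at 118 and ILMN_2753809 at 91.5), while its representative probes of the other 5 genes read 10.7 to 19.6.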

How the results depend on the processing

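Of 27 called member results, 26 alternatives gave 696 values that could be compared, and 618 of these kept direction and call. With all 16 arrays kept as deposited, 0 of the 7 genes were called in each of the 7 comparisons that had calls, and Mmp2 turned to -0.27 between LIN28B/Apcmin colon and small intestinal tumours. The replicate block gave 1 call in LIN28B/Apcmin against Apcmin small intestinal tumours (Timp1) and 2 in LIN28B/Apcmin small intestinal tumours against wt (Timp1 and Mmp13). It lost 1 call, Mmp14 between LIN28B/Apcmin colon and small intestinal tumours (0.86). Same-numbered arrays deviated together with r from -0.03 to 0.36 over 15 pairs of groups, and the numbers were not taken as pairs. LIN28B small intestinal tumours had r = 0.36 with Apcmin and 0.27 with LIN28B/Apcmin small intestinal tumours. Wt colon had 0.11 with LIN28B/Apcmin colon tumours, and all other pairs were under 0.1. LIN28B/Apcmin small intestinal tumours against wt also had 2 calls with median centring and with the series' value table, and 0 without the detection filter. With title numbers averaged its 1 call was another gene, Mmp13 (2.13) in place of Timp1 (3.31). Median centring gave 1 call each in LIN28B/Apcmin against Apcmin colon tumours and in the LIN28B effect of colon minus small intestine, both Mmp13. LIN28B tumours against wt small intestine had 1 call without the filter and 1 with title numbers averaged, which also left 1 between LIN28B/Apcmin colon and small intestinal tumours. Leaving out 1 array at a time gave 4 to 6 calls in Apcmin and 5 to 6 in LIN28B/Apcmin colon tumours against wt, and 0 to 1 between these tumours. In the small intestine it gave 0 to 4 in LIN28B, 0 to 3 in LIN28B/Apcmin and 0 to 1 in Apcmin tumours against wt, 0 to 2 in LIN28B/Apcmin against Apcmin tumours and 0 against LIN28B tumours. Between organs it gave 4 to 7 for Apcmin and 1 to 5 for LIN28B/Apcmin tumours, 1 to 4 for the Apcmin effect, 0 to 2 for the LIN28B effect and 0 to 1 for LIN28B over both organs. The causes were not tested. Without wt small intestinal replicate 2 no comparison with that mucosa could be fitted. Mmp3, the dim Mmp13 probes and Mmp10 on wt colon replicate 2 lay close to background, which limits their folds.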
